A study of Mus musculus with 27 samples.

Results

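Tbx5, introduced alone into mouse cardiac fibroblasts, raised the accessibility of a set of regions that Gata4 alone and Mef2c alone left near the control level, and these Tbx5-only regions were followed here in cells that received Tbx5 together with the other factors. Of 30815 regions in the table of ATAC-seq counts, 1605 (5.21%) were Tbx5-only. They were chosen on measured values of the control, Gata4, Mef2c and Tbx5 groups. Counts were turned into CPM, the count divided by the library's total and scaled to a fixed total that is the same for each library, and x is the mean CPM of 3 replicates plus 5. A Tbx5-only region had x at least 2.5-fold above the control with Tbx5 alone, and x between 0.6 and 1.67 of the control both with Gata4 alone and with Mef2c alone. "Opened" is used as a name for a higher count.

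All cells were of an immortalised neonatal cardiac fibroblast line of the Cd-1 strain that expresses large T antigen and carries the alpha-MHC-GFP genotype, a reporter driven by a heart muscle promoter, and all were harvested unsorted at day 2. The control group received retroviral dsRed, a red fluorescent protein, with no chemical treatment. The 7 factor groups received retroviral Gata4 (G), Mef2c (M), Tbx5 (T), Gata4 and Mef2c (GM), Gata4 and Tbx5 (GT), Mef2c and Tbx5 (MT), or all of them (GMT), each with sb431542, an inhibitor of TGF-beta signalling, and xav939, an inhibitor of Wnt signalling. Each of the 8 groups had 3 libraries that the labels call biological replicates without saying what separates them, so p-values measure the spread between these libraries. Factors and inhibitors cannot be told apart in any value set against the control, whereas GM, GT, MT and GMT all had the inhibitors. The labels list another 3 samples of dsRed cells given both inhibitors, which were not analysed here. In a line of immortalised, unsorted cells, a larger number of cells with an open region and a more open region in each cell cannot be told apart. The fibroblast label was not checked against marker genes, because the regions carry no gene names.

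Tbx5 is a T-box transcription factor needed for heart development, Gata4 is a zinc-finger factor and Mef2c is a MADS-box factor, and together they are used to turn fibroblasts into cells that resemble heart muscle cells. Gata4 and Tbx5 are known to bind each other and to occupy many cardiac enhancers together. In ATAC-seq a transposase inserts adapters where DNA is not covered by nucleosomes, so a count is high at promoters, enhancers and other open sites.

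The values that chose the regions are given as a description only. The ratio of x in T to x in the control had a median of 3.79 and a maximum of 18.8, with 706 regions at 4 or above and 116 at 8 or above. In all, 2228 regions of the table were at least 2.5-fold above the control in T, and the Tbx5-only regions were 72.0% of them. Control counts were low, with a median of 15 summed over the 3 control libraries, 48 regions with 3 or fewer and 2 with 0. The choice leaned on T replicate 1, the T library with the largest share of its counts in these regions: 1275 of the 1605 (79.4%) stayed at or above the 2.5-fold limit without it, against 1538 without T replicate 2 and 1563 without T replicate 3.

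The regions nearest to the limit are given with the values that placed them. Just inside lay chr8:122310903-122311106, with 28.8, 20.7 and 16.3 CPM in T against 4.37, 8.73 and 4.15 in the control, and chr1:39862282-39862712, with 57.5, 17.7 and 19.9 against 6.55, 9.98 and 12.5. A further region, on chromosome 18, was inside through 1 library, with 41.8 CPM in T replicate 1 against 8.86 and 3.62 in the other T libraries and 3.32 to 4.99 in the control. Just outside lay chr17:37079359-37079606, with 136, 199 and 136 CPM in T against 52.4, 72.4 and 54.8 in the control. The other two were chr10:30421282-30421669, at 26.1, 8.86 and 18.1 against 4.37, 6.24 and 1.66, and chr6:134660306-134660506, at 13.1, 26.6 and 14.5 against 4.37, 7.49 and 0.83.

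The 6 regions with the highest ratios were followed library by library. At chr17:73371686-73372265, the third by ratio, the control libraries held 30.6, 13.7 and 11.6 CPM and the T libraries 471, 390 and 303. This region was also high in every library of MT, at 339, 337 and 322, and of GMT, at 249, 324 and 261. It was low in every library of GM, at 10.9, 17.2 and 21.6. In GT it was high in replicates 2 and 3, at 281 and 200, and low in replicate 1, at 12.3. The other 5 lie on 4 chromosomes and were all above GM in MT and GMT by edgeR's quasi-likelihood test.

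At chr6:5753140-5753569 T libraries held 332, 275 and 230 CPM, MT libraries 128, 113 and 156, GMT libraries 87.0, 56.3 and 38.7, GT libraries 6.17, 35.6 and 91.8, and GM libraries 6.42, 14.7 and 12.4. Here all combinations were well below T. At chr11:112791536-112792047 T libraries held 267, 171 and 178 CPM, MT libraries 130, 156 and 161, GMT libraries 104, 64.8 and 63.2, and GT libraries 14.8, 67.0 and 122. At chr6:94912490-94912998 the combinations were alike, with 88.0, 107 and 95.8 in MT, 91.1, 102 and 104 in GMT and 111 and 91.8 in GT replicates 2 and 3, against 12.3 in GT replicate 1 and 5.13, 14.7 and 6.18 in GM. At chr5:124588947-124589509 GMT was the highest, at 82.9, 388 and 200 CPM against 316, 155 and 145 in T. The region with the highest ratio of all lies on chromosome 18, with 167, 108 and 54.4 CPM in T against 0 to 2.50 in the control, and 20.7, 53.8 and 34.9 in GMT. In all 6 regions replicate 1 of GT was the lowest GT library.

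The share of a library's counts that fell in Tbx5-only regions set the library labelled GT replicate 1 apart from every other library labelled with Tbx5. The share was 1.42% ± 0.25 (SD, n = 3) in the control, 1.52% ± 0.33 in G, 1.46% ± 0.098 in M and 1.47% ± 0.14 in GM. It was 8.96% ± 2.51 in T, 5.98% ± 0.83 in MT and 5.79% ± 1.55 in GMT, where the single libraries ran from 4.09% to 11.6%. In GT it was 1.57% in replicate 1, within the 1.15% to 1.80% of the libraries labelled without Tbx5, against 5.94% and 4.91% in replicates 2 and 3. Regions opened by Gata4 only, chosen by the same rule with the factors exchanged, took 3.84% of the counts of GT replicate 1, within the 2.14% to 4.44% of the G libraries. Regions opened by Mef2c only took 0.855%. Neither the Gata4-only nor the Mef2c-only share goes against a label of Gata4 and Tbx5. GT replicate 2 also lay within the range of the G libraries in Gata4-only regions, at 2.44%, and GT replicate 3 lay below it, at 1.65%. Of the 3 sets, only the Tbx5-only regions thus went against the label of GT replicate 1. The difference was also seen over the 20494 regions that pass the count filter with all 24 libraries. There Spearman's rho of GT replicate 1 was 0.94, 0.82 and 0.91 with the G libraries. It was 0.73 and 0.72 with GT replicates 2 and 3, which had 0.85 with each other, and 0.51, 0.52 and 0.61 with the T libraries. What set GT replicate 1 apart was not tested. Counts of calls, levels over the set and tested GT values are given with and without this library. Total counts lay between 241394 (GMT replicate 1) and 1704896 (MT replicate 1). The library with the fewest counts, GMT replicate 1, also had the lowest share of GMT, and 101 Tbx5-only regions had no count in it.

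**Figure D1:**
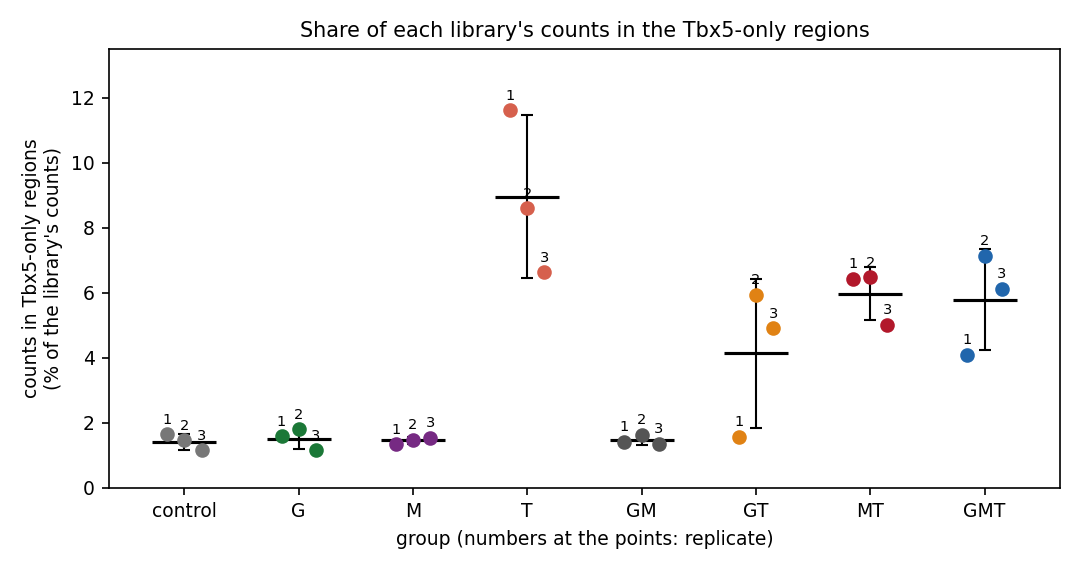
Percentage of each library's counts that lay in the 1605 Tbx5-only regions, by group. Points are libraries numbered by replicate, bars the group mean and whiskers 1 SD. Libraries labelled without Tbx5 and GT replicate 1 lie at or below 1.80%, and the other 11 labelled with Tbx5 at or above 4.09%.

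Gata4 and Mef2c together left the regions at the level that each had alone. The median over all 1605 regions of the mean CPM was 6.48 in the control, 6.93 in G, 6.63 in M and 6.65 in GM, against 42.8 in T, 26.9 in MT, 26.5 in GMT and 19.2 in GT, or 24.9 in GT without replicate 1. Over all 30815 regions these medians ran from 8.55 to 13.3. In GM 3 Tbx5-only regions had x at least 2.5-fold above the control, where 1307 (4.24%) of all regions had. The rule used the control and left out regions that Gata4 or Mef2c alone raised, whereas all regions include them. A low number in GM was therefore likely from the choice of regions. GM was not used to choose the regions and shares the inhibitors with GT, MT and GMT, so it served as the reference for the tests that follow. Tests were fitted over the 12 libraries of these combinations alone. Of the Tbx5-only regions 1425 had counts high enough to be tested among 18714 in all, and counts below are given out of all 1605. The filter asked for enough counts in at least 3 of the 12 libraries. A region low in GM could thus enter the test through the groups with Tbx5, where it was high.

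With Tbx5 added to Gata4 and Mef2c, 832 of the 1605 regions (51.8%) were called higher in GMT than in GM and 0 lower. The calls were made by edgeR's quasi-likelihood test at a Benjamini-Hochberg adjusted p under 0.05. Of all regions tested, 10.2% were called higher and 1.14% lower. The Tbx5-only regions, 5.21% of the table, were 43.7% of the 1904 regions called higher. The median log2 ratio of x in GMT to x in GM was 1.38 over the Tbx5-only regions and -0.05 over all regions, and 860 (53.6%) reached 2.5-fold, against 5.99% of all regions. In 1096 of the regions (68.3%) all 3 GMT libraries lay above all 3 GM libraries in CPM, where 12.2% of all regions did so. Called regions rose by a median of 2.49 on the log2 scale, from 1.12 to 5.14. For the count of 0 lower, 0 regions had an unadjusted p under 0.05 in that direction and DESeq2 called 0. The median count per Tbx5-only region was only 10, 3 and 4 in GM replicates 1, 2 and 3. A fall below GM could therefore hardly be called, and the 0 says little about the regions. The count of 832 fell to 286 without GM replicate 1, 234 without GM replicate 3, 250 without GMT replicate 2 and 378 without GMT replicate 3, and was 1011 without GT replicate 1, where 12.8% of 18953 regions were called higher and 2.92% lower.

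Among regions with at least the median level of those tested and groups that did not overlap, the largest rises in GMT began from few counts in GM. At chr2:18752751-18752960, a region of 210 bp, GM libraries held 1.92, 0 and 3.09 CPM and GMT libraries 74.6, 77.1 and 57.6. The groups did not overlap and the log2 fold change was 5.06 ± 0.90 (SE, n = 3 a group, edgeR adjusted p = 0.00501). At chr4:11901592-11901976 GM libraries held 1.92, 0 and 1.55 CPM and GMT libraries 20.7, 48.9 and 59.5, for a log2 fold change of 4.79 ± 0.76 (adjusted p = 0.00382). This region lay near the 2.5-fold limit in T, at 18.3, 22.2 and 16.3 CPM, and every GMT library except replicate 1 lay above every T library. At chr15:86062425-86062908 GM libraries held 14.1, 7.37 and 13.9 CPM and GMT libraries 116, 323 and 261, for 4.22 ± 0.64 (adjusted p = 0.0033). At chr7:4905310-4905630 they held 1.28, 2.46 and 3.09 in GM and 20.7, 39.1 and 53.8 in GMT, again 4.22, with an SE of 0.74 (adjusted p = 0.00485). In each of the last 3 regions GMT replicate 1 was the lowest GMT library, and in all 4 the lowest GMT library lay above the highest GM library.

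Tbx5 with Mef2c, without Gata4, raised a similar number. In MT 878 of the 1605 regions (54.7%) were higher than in GM and 0 were lower with edgeR's quasi-likelihood test, where 10.2% and 4.35% of the regions tested were called. No region had an unadjusted p under 0.05 toward lower, and DESeq2 called 0 lower. The low counts in GM left little room for such a call here too. The median log2 ratio of x was 1.37, against -0.02 over all regions, and 849 regions (52.9%) reached 2.5-fold, against 5.69% of all regions. All 3 MT libraries lay above all 3 GM libraries in 1242 regions (77.4%), where 14.9% of all regions did so. The count of 878 was 468 without GM replicate 1, 450 without GM replicate 3, 498 without MT replicate 1 and 565 without MT replicate 2. Without GT replicate 1 it was 1053, where 12.9% of the regions tested were called higher and 7.02% lower.

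By the same rule, the region named first for GMT was also the first for MT. At chr2:18752751-18752960 MT libraries held 107, 123 and 126 CPM, a log2 fold change over GM of 5.87 ± 0.88 (adjusted p = 0.000748 by edgeR's quasi-likelihood test). At chr7:4905310-4905630 they held 120, 95.8 and 39.7, for 5.36 ± 0.72 (adjusted p = 0.000467). Both regions were nearly without counts in GM. At chr12:9244394-9244756 GM libraries held 5.77, 4.91 and 9.27 CPM and MT libraries 167, 185 and 159, for 4.67 ± 0.67 (adjusted p = 0.000684). At chr19:32343652-32343993 they held 1.92, 2.46 and 6.18 in GM and 106, 75.1 and 63.1 in MT, for 4.63 ± 0.73 (adjusted p = 0.000868). In these 4 regions the lowest MT library was more than any GM library held, and MT replicate 3 was the lowest in 3 of them.

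Tbx5 with Gata4, without Mef2c, raised fewer regions than MT or GMT as the libraries are labelled. The gap was smaller once GT replicate 1 was left out. With all 3 GT libraries, 427 of the 1605 regions (26.6%) were above GM and 0 below it in edgeR's quasi-likelihood test, where 4.87% and 5.45% of the regions tested were called. For the count of 0, 2 regions had an unadjusted p under 0.05 toward lower and DESeq2 called 0. Again the low counts in GM left little room for a call toward lower. Without GT replicate 1, 914 regions (56.9%) were higher and 0 lower, where 11.4% and 7.62% of the regions tested were called, and 1 region had an unadjusted p under 0.05 toward lower. With GT replicate 1 left out, 1053 regions were higher than GM in MT and 1011 in GMT. The median log2 ratio of x to GM was 1.00 with and 1.29 without that library, against 0.01 and -0.06 over all regions. The share of regions at 2.5-fold was 30.8% with it and 48.0% without, against 3.22% and 5.44% of all regions. Non-overlap changed most: all GT libraries lay above all GM libraries in 448 regions (27.9%) with it, where 7.66% of all regions did so, and in 1276 (79.5%) without it, where 16.0% did so. The count of 427 was 52 without GM replicate 1, 99 without GM replicate 3, 6 without GT replicate 2 and 241 without GT replicate 3.

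Single regions showed the same division among GT libraries. At chr7:28440702-28441026 GM libraries held 4.49, 2.46 and 3.09 CPM and GT libraries 7.41, 86.5 and 54.1. The log2 fold change was 3.72 ± 0.69 (adjusted p = 0.00413 by edgeR's quasi-likelihood test) and 4.22 ± 0.46 (adjusted p = 1.19e-05) without GT replicate 1. At chr9:32121278-32121889 GM libraries held 5.77, 22.1 and 7.73 CPM and GT libraries 34.6, 214 and 120, for 3.65 ± 0.59 (adjusted p = 0.00191), or 4.11 ± 0.45 (adjusted p = 1.15e-05) without GT replicate 1. This was a region where replicate 1 of GT stood above GM, although G libraries held 26.7, 31.1 and 23.3 CPM there. At chr2:166225369-166225572 GM libraries held 2.57, 2.46 and 1.55 CPM and GT libraries 4.94, 47.5 and 18.8, for 3.40 ± 0.76 (adjusted p = 0.0121), or 3.88 ± 0.61 (adjusted p = 0.000269) without GT replicate 1. At chr4:11901592-11901976, described above for GMT, GT libraries held 9.88, 33.9 and 7.06 CPM, for 3.53 ± 0.79 (adjusted p = 0.0124), or 3.84 ± 0.77 (adjusted p = 0.00171) without it. Except at chr9:32121278-32121889, these calls were lost without GT replicate 2. Those at chr2:166225369-166225572 and chr4:11901592-11901976 were also lost without GM replicate 1.

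**Figure D2:**
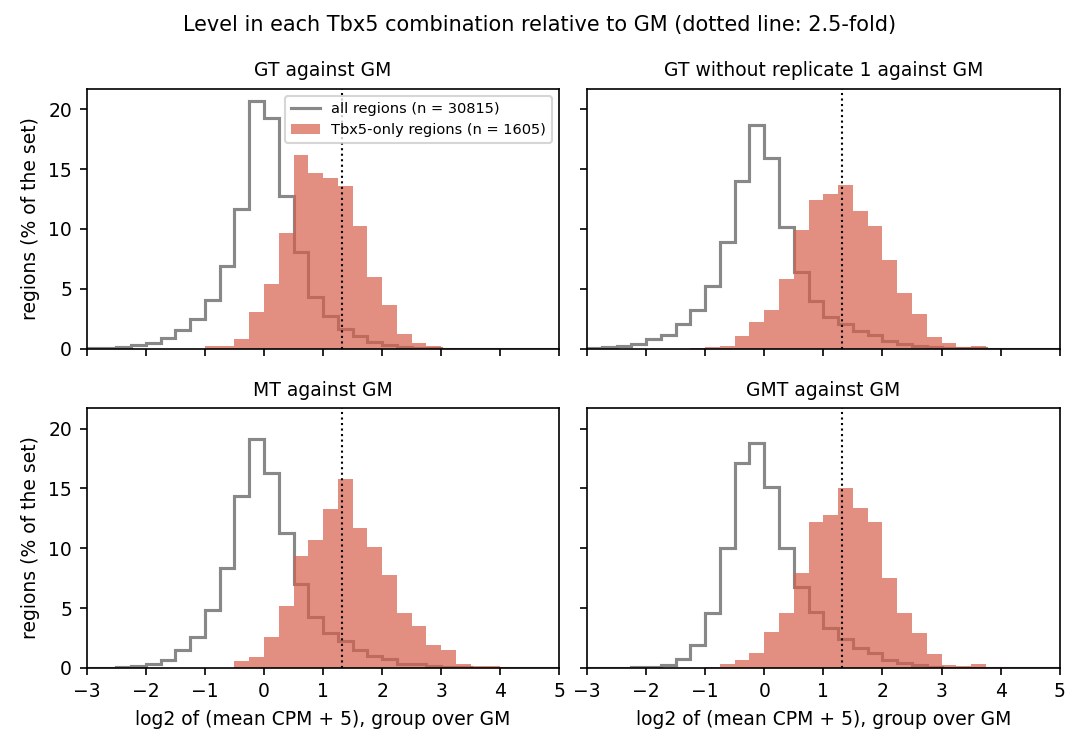
Distribution of the log2 ratio of mean CPM + 5 between a Tbx5 combination and GM, for the 1605 Tbx5-only regions (filled) and all 30815 regions (line), as a percentage of each set. The dotted line marks 2.5-fold. The Tbx5-only regions centre on 1.00 in GT, 1.29 in GT without replicate 1, 1.37 in MT and 1.38 in GMT, and all regions near 0.

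Regions with a higher T to control ratio had, by quartile, a higher median fold over GM in the combinations. The set was divided into quartiles of the T to control ratio, and GM, which the rule did not use, was the reference. In GMT the median fold of x over GM was 2.08, 2.44, 2.74 and 3.35 from the lowest to the highest quartile. In MT it was 1.98, 2.30, 2.69 and 3.96, and in GT without replicate 1 it was 1.91, 2.24, 2.53 and 3.42. The share of regions at 2.5-fold over GM in GMT went from 33.3% in the lowest quartile through 47.4% and 58.1% to 75.6% in the highest. The level in GM hardly differed between quartiles, with medians of 6.16, 6.82, 6.65 and 6.99 CPM. Across the 1605 regions Spearman's rho between the T to control ratio and the ratio over GM was 0.37 for GMT, 0.50 for MT and 0.39 for GT without replicate 1. The width of a region was related to its ratio of GMT over GM about as closely, with a rho of 0.40, and the median width went from 271 bp in the lowest quartile to 326 bp in the highest. The part of width in the difference between quartiles was not tested. These are correlations across regions of the same libraries, and regions are not independent replicates.

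**Figure D3:**
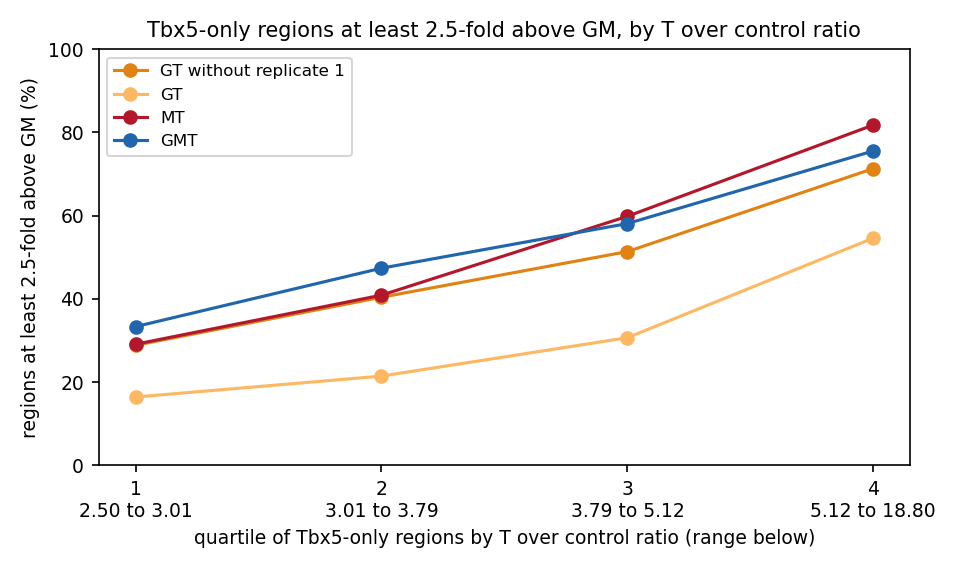
Percentage of Tbx5-only regions at least 2.5-fold above GM (mean CPM + 5) in GT, GT without replicate 1, MT and GMT, by quartile of the T to control ratio. Each point covers 401 or 402 regions. In GMT the share went from 33.3% to 75.6%.

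Most regions were less open in the combinations than with Tbx5 alone. Levels in T chose the regions, so a high value in T was partly selected and the comparison is descriptive. The median ratio of x to x in T was 0.66 in MT, with quartiles of 0.52 and 0.82. It was 0.65 in GMT (0.46 and 0.89), 0.50 in GT (0.38 and 0.67) and 0.61 in GT without replicate 1 (0.45 and 0.83). In GM it was 0.26. Regions at or above their T level numbered 219 in MT, 274 in GMT, 77 in GT and 220 in GT without replicate 1, against 2 in GM.

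Some regions that Tbx5 opened alone were close to the GM level with all factors present. Among regions with at least the median T level, chr6:142721118-142721386 had the lowest ratio of GMT to T, at 0.0955: T libraries held 96.7, 73.9 and 30.8 CPM, GM libraries 7.70, 12.3 and 4.64, and GMT libraries 0, 0 and 5.66. Its log2 fold change between GMT and GM, -1.52 ± 0.85, did not pass the test (adjusted p = 0.26 by edgeR's quasi-likelihood test). At chr3:139549650-139549850 T libraries held 141, 194 and 30.8 CPM and GMT libraries 8.29, 3.67 and 14.2, near the 4.49 to 9.82 of GM. At chr12:28205339-28205615 T libraries held 162, 120 and 59.8 CPM, MT libraries 42.2, 84.6 and 39.7, and GMT libraries 16.6, 3.67 and 14.2. There MT was above GM by 3.50 ± 0.77 on the log2 scale (adjusted p = 0.00593) and GMT by 1.09 ± 0.86 (adjusted p = 0.437). The region chr5:73892798-73893001 was the next, with 133, 94.6 and 61.6 CPM in T, 27.6, 41.5 and 18.7 in MT and 12.4, 7.34 and 10.4 in GMT.

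At the other end, GMT exceeded T. At chr13:91025549-91026125 T libraries held 110, 136 and 125 CPM and GMT libraries 232, 330 and 405, which did not overlap, and MT libraries were also above T at 198, 294 and 166. GM libraries held 41.7, 54.0 and 64.9 there, and GMT was above GM by 2.63 ± 0.46 on the log2 scale (adjusted p = 0.00487 by edgeR's quasi-likelihood test). At chr15:68243764-68244614, 851 bp wide, T libraries held 170, 171 and 105 CPM and GMT libraries 124, 384 and 518. At chr5:12630832-12631365 they held 52.3, 32.5 and 63.4 in T and 82.9, 68.5 and 122 in GMT. A region on chromosome 18 was at 94.1, 39.9 and 25.4 CPM in T and 99.4, 158 and 160 in GMT. In 3 of these 4 regions every GMT library lay above every T library, chr15:68243764-68244614 being the one where they overlapped.

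Without GT replicate 1, calls between GT and MT were about as frequent among the Tbx5-only regions as among all regions tested. As labelled, 183 of the 1605 regions (11.4%) were lower in GT than in MT and 7 were higher by edgeR's quasi-likelihood test, where 9.74% and 6.41% of all regions tested were called. Without GT replicate 1 the counts were 104 lower and 69 higher, where 7.18% and 5.28% were called, so the split of calls toward MT depended on that library. The 183 also fell to 65 without MT replicate 1 and 88 without MT replicate 2. The 7 higher became 16 without GMT replicate 1 and between 0 and 4 without any one of GM replicates 1 and 3, GMT replicates 2 and 3, GT replicate 2 and the 3 MT libraries.

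Regions open with Mef2c and Tbx5 but not with Gata4 and Tbx5 had the largest of these differences. At chr15:22261286-22261486 MT libraries held 109, 121 and 93.4 CPM, GMT libraries 45.6, 31.8 and 89.7, and T libraries 28.8, 25.1 and 29.0. GT libraries held 2.47, 5.09 and 9.41, the level of GM at 3.85, 9.82 and 9.27, so this region was low in replicates 2 and 3 of GT as well. The log2 fold change was -4.37 ± 0.53 for GT against MT (adjusted p = 8.3e-05 by edgeR's quasi-likelihood test) and 3.42 ± 0.53 for GMT against GT (adjusted p = 0.00147). At chr3:126890133-126890492 MT libraries held 69.2, 81.4 and 18.7 CPM, GMT libraries 12.4, 37.9 and 40.6, GT libraries 4.94, 3.39 and 4.71, and GM libraries 6.42, 0 and 3.09. GT was lower than MT by -3.74 ± 0.65 on the log2 scale (adjusted p = 0.00132), and GMT higher than GT by 2.90 ± 0.67 (adjusted p = 0.0181), a call that was lost without GT replicate 2, GMT replicate 2 or GMT replicate 3. Without GT replicate 1 the GT to MT values were -3.99 ± 0.56 (adjusted p = 0.000422) and -3.84 ± 0.75 (adjusted p = 0.00302), and the GMT to GT values 3.03 ± 0.57 (adjusted p = 0.00712) and 2.98 ± 0.77 (adjusted p = 0.0399). Further regions of this kind, named after their values without GT replicate 1 were seen, were chr8:49462207-49462415, with 7.41, 5.09 and 9.41 CPM in GT and 99.7, 79.8 and 16.3 in MT, and chr3:27492808-27493011, with 3.70, 9.32 and 4.71 in GT and 89.7, 73.5 and 21.0 in MT.

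Regions that leaned to Gata4 and Tbx5 were named in the same way. At chr6:134084165-134084489 GT libraries held 12.3, 78.0 and 56.5 CPM and GMT libraries 33.1 to 52.6, while MT libraries held 8.21, 20.8 and 9.34, close to the 3.85, 14.7 and 6.18 of GM. GT was above MT by 1.99 ± 0.60 on the log2 scale with all libraries (adjusted p = 0.0312 by edgeR's quasi-likelihood test) and by 2.51 ± 0.48 without GT replicate 1 (adjusted p = 0.0028). At chr1:71944356-71944648 GT libraries held 1.23, 57.6 and 56.5 CPM, GMT libraries 29.0, 59.9 and 54.8, and MT libraries 12.3, 16.0 and 9.34. That difference passed without GT replicate 1, at 2.19 ± 0.45 (adjusted p = 0.00409), and not with it, at 1.57 ± 0.72 (adjusted p = 0.147). At chr15:58210066-58210327 GT libraries held 11.1, 123 and 35.3 CPM and MT libraries 17.0, 30.3 and 14.0, and at chr10:33917356-33917575 they held 13.6, 80.5 and 35.3 in GT and 6.45, 17.6 and 14.0 in MT. In all 4 regions replicate 1 of GT was the lowest GT library.

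**Figure D4:**
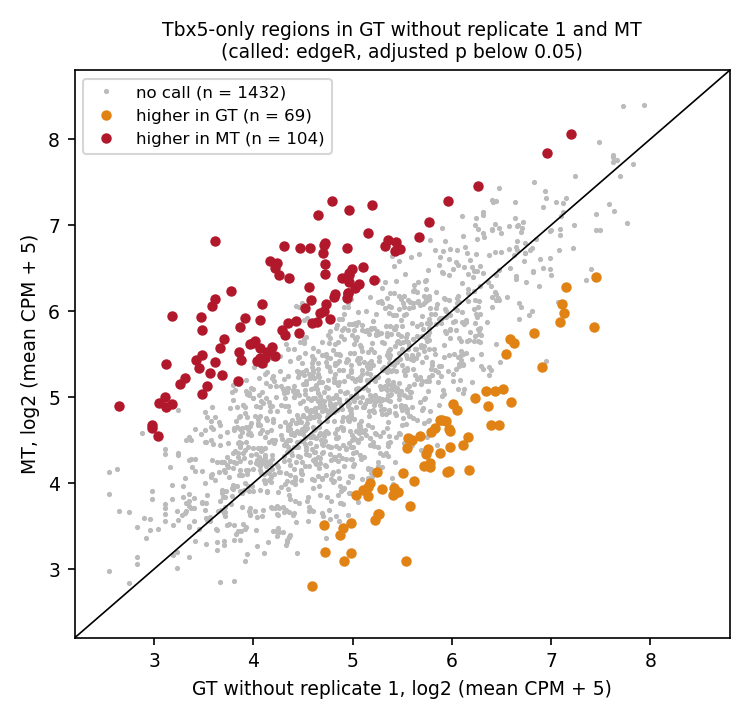
Level of the 1605 Tbx5-only regions in GT without replicate 1 (horizontal) and MT (vertical), as log2 of mean CPM + 5, with the line of equal level. Coloured points were called by edgeR's quasi-likelihood test without GT replicate 1, 69 higher in GT and 104 higher in MT.

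The effect of the third factor was taken from GMT against each pair that held Tbx5. Mef2c added to GT raised 39 of the 1605 regions (2.43%) in GMT and lowered 0 by edgeR's quasi-likelihood test, where 4.44% and 0.476% of the regions tested were called. For the count of 0, 5 regions had an unadjusted p under 0.05 and DESeq2 called 0. Without GT replicate 1, 11 were higher and 2 lower (0.762% and 0.139% of the Tbx5-only regions tested), where 2.43% and 0.116% of all regions tested were called. The 39 became 70 without GMT replicate 1, 8 and 4 without GMT replicates 2 and 3, 23 without GM replicate 3 and 22 without MT replicate 2. Gata4 added to MT raised 0 and lowered 0, where 0.0427% and 0% of the regions tested were called. At an unadjusted p under 0.05 there were 76 higher and 105 lower, and DESeq2 called 2 higher and 5 lower. Without GT replicate 1, 9 were higher and 12 lower, where 1.04% and 0.179% were called. Without GMT replicate 1 they were 8 and 4. In CPM, all 3 GMT libraries lay below all 3 MT libraries in 201 Tbx5-only regions (12.5%), where 7.48% of all regions did so, and above them in 98 (6.11%), where 7.61% did so. The medians of the 2 groups over the set, 26.5 and 26.9 CPM, were close.

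Among the regions called lower in GMT than MT without GT replicate 1, and named after those values were seen, was chr5:104128695-104128897. MT libraries held 80.9, 105 and 49.0 CPM there, GMT libraries 16.6, 14.7 and 13.2, and GM libraries 6.42, 9.82 and 7.73. The groups did not overlap, and the log2 fold change was -2.50 ± 0.40 (adjusted p = 0.0128 by edgeR's quasi-likelihood test) without GT replicate 1 and -2.47 ± 0.48 (adjusted p = 0.0574) with it. At chr6:117968509-117968963 MT libraries held 112, 112 and 60.7 CPM and GMT libraries 16.6, 34.2 and 23.6. At chr7:4905686-4906057 they held 88.0, 87.8 and 42.0 in MT and 12.4, 20.8 and 24.5 in GMT. This last region lies beside chr7:4905310-4905630, one of the regions that rose most in GMT over GM. There the mean CPM was also higher in MT than in GMT, but the libraries of these groups overlapped.

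Regions opened by a single factor differed in how many were open in the combination of all 3 factors, each set against the pair without its factor. Of the Tbx5-only regions 53.6% had x at least 2.5-fold above GM in GMT, with a median log2 ratio of 1.38. Of the 936 opened by Gata4 only 10.5% were at 2.5-fold over MT, with a median of 0.51, and of the 1172 opened by Mef2c only 22.3% were at 2.5-fold over GT, with a median of 0.82. Over all regions these shares were 5.99%, 1.35% and 3.01%. The Mef2c values without GT replicate 1 were 24.8% and 0.86, where all regions gave 3.17%. Each of the 3 sets was above the share over all regions. The sets also began from unequal opening by their own factor alone. The median log2 ratio of x to the control was 1.92 in T for Tbx5 only, 1.67 in G for Gata4 only and 1.75 in M for Mef2c only. The references differ between the 3 sets too, so the shares are set side by side with no test.

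The Tbx5-only regions were wider than regions of the table as a whole, and more often had another Tbx5-only region as their nearest region. Their median width was 303 bp, against 259 bp for regions opened by Gata4 only, 263 bp for those opened by Mef2c only and 234 bp for all. Of the Tbx5-only regions 363 (22.6%) were wider than 400 bp, against 12.0% of all. A wide region can collect more counts and so may meet the rule more easily, and the part of this in the widths was not tested. The widest was chr15:38496672-38497630, 959 bp, with 204, 94.6 and 101 CPM in T, 58.0, 132 and 95.3 in GMT, and 32.1, 12.3 and 20.1 in GM, a log2 fold change over GM of 2.06 ± 0.46 (adjusted p = 0.0106 by edgeR's quasi-likelihood test). The median distance to the nearest region of any kind was 8.4 kb, against 12.8 kb over all regions. To the nearest other Tbx5-only region it was 207 kb. For 270 regions (16.8%) the nearest region of the table was another Tbx5-only region, where a Tbx5-only region was the nearest for 5.54% of all regions. The other sets also lay beside their own kind more often than all regions did, with 6.52% against 3.02% for Gata4 only and 6.66% against 3.81% for Mef2c only. Neighbours can be parts of a single open stretch, and 130 Tbx5-only regions (8.10%) had another within 1 kb. Tbx5-only regions lay on every autosome and X, from 3.27% of the regions on X to 6.64% of those on chromosome 4, and the 5 regions on Y held none.

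When Tbx5-only regions with gaps of at most 50 kb were joined, 457 (28.5%) fell in 196 groups of at least 2, of which 16 held 4 or more. Of the Gata4-only and Mef2c-only regions, 13.8% and 12.7% had another of their own set within 50 kb. Those sets hold fewer regions, 936 and 1172, so the shares are not on equal terms. The largest group was chr10:76859811-76961325, where 8 of the 11 regions in 101.5 kb were Tbx5-only. Their mean level was 119, 85.3 and 63.0 CPM in T and 82.3, 70.9 and 40.6 in MT. It was 19.7, 55.7 and 36.0 in GMT, 10.6, 33.6 and 34.4 in GT, and 11.5, 12.0 and 9.08 in GM. All 8 were called higher in MT than GM, 4 in GMT and 0 in GT by edgeR's quasi-likelihood test, and without GT replicate 1 the counts were 8, 6 and 5. The region chr10:76961056-76961325 held 69.8, 78.2 and 35.0 CPM in MT, 16.6, 39.1 and 20.8 in GMT and 6.42, 7.37 and 6.18 in GM.

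The regions of this group were not all alike in GMT. At chr10:76946898-76947434 GMT libraries held 53.9, 181 and 104 CPM against 34.6, 29.5 and 27.8 in GM, a log2 fold change of 1.90 ± 0.43 (adjusted p = 0.0107 by edgeR's quasi-likelihood test). At chr10:76912698-76912942 GMT libraries held 4.14, 6.12 and 10.4 CPM, the level of GM at 5.77, 7.37 and 6.18, whereas MT libraries held 54.0, 54.3 and 25.7 (log2 fold change of MT over GM 2.85 ± 0.48, adjusted p = 0.00148). Of the 3 regions in the stretch that were not Tbx5-only, chr10:76880486-76880712 was open everywhere, with a mean of 96.2 CPM in the control and 103 in T. The region chr10:76930236-76930517 was 2.84-fold above the control in T and was left out because G and M were above 1.67, at 1.78 and 2.33. The region chr10:76935067-76935380 was open in the control at a mean of 79.0 CPM and in T at 117, and stood at 27.8 in G, 17.6 in M and 26.0 in GM.

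**Figure D5:**
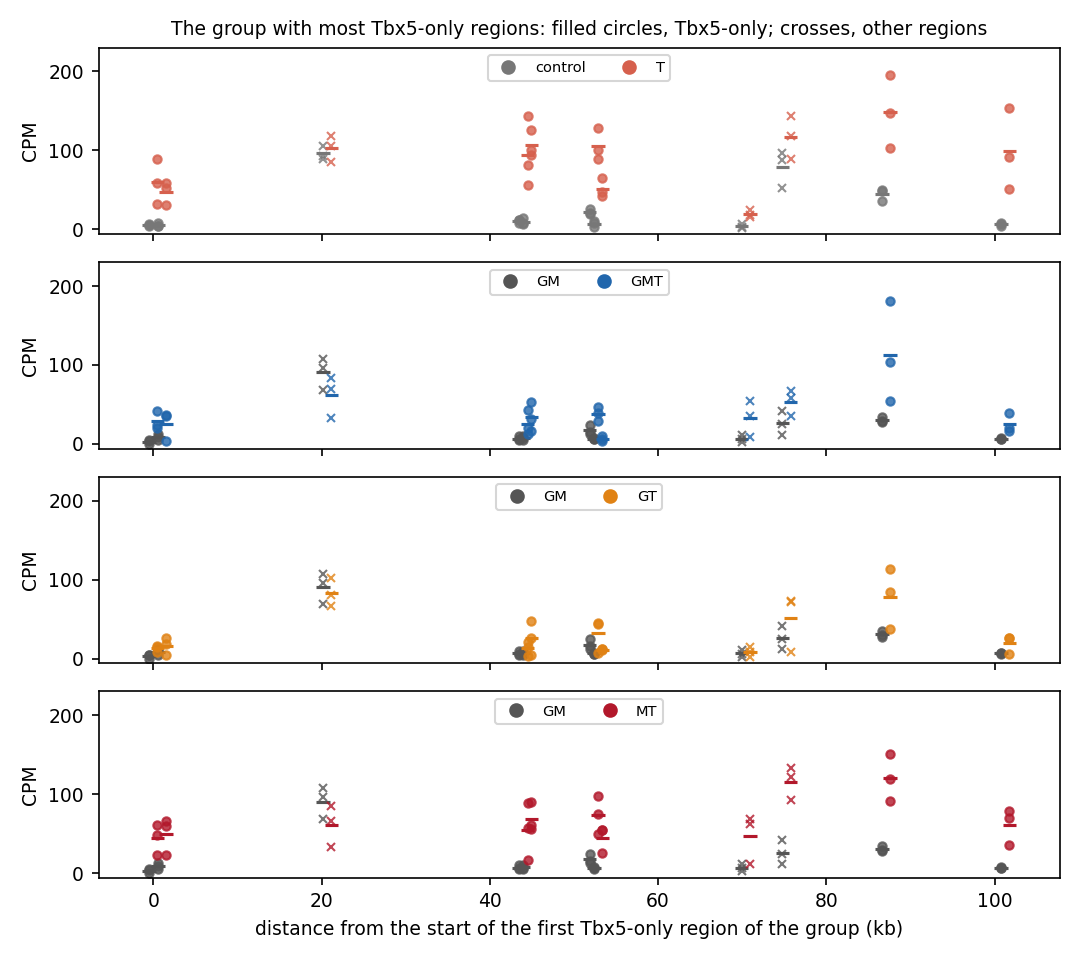
CPM of each library at the 11 regions of the largest group, by distance from the start of its first region, for control and T and for GM with GMT, GT and MT. Circles are the 8 Tbx5-only regions, crosses the other 3, and dashes group means. Each of the 8 regions is higher in all MT libraries than in all GM libraries, and the cross near 20 kb is open in every group.

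In the next groups by number the combinations were closer to one another. The group chr4:45454014-45529135 had 6 Tbx5-only regions among 12 in 75.1 kb, with a mean of 101, 68.2 and 63.4 CPM in T, 60.0, 49.2 and 50.2 in MT, 38.7, 83.8 and 50.8 in GMT, 20.4, 69.5 and 48.2 in GT, and 14.8, 16.0 and 15.5 in GM. Of the 6 regions 4 were called higher in MT, 4 in GMT and 3 in GT than in GM, by edgeR's quasi-likelihood test, and 4 in each without GT replicate 1. The group chr2:156445555-156512753 had 5 among 7 in 67.2 kb, with 85.7, 57.0 and 41.7 CPM in T, 45.4, 33.2 and 17.3 in MT, 13.3, 84.9 and 40.0 in GMT, 13.3, 35.9 and 32.5 in GT, and 7.06, 8.84 and 8.35 in GM. There 3 of the 5 were called higher in GMT, 2 in MT and 1 in GT (3, 2 and 2 without GT replicate 1), and 1 had too few counts to be tested. In both groups GT replicate 1 was the lowest GT library, and GMT replicate 2 was the highest GMT library.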

How the data were processed

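Per the labels' protocols, ATAC-seq libraries were made at day 2 from unsorted cells. The deposited table holds whole-number counts for each region in each library, not normalised. The submitters' processing notes name Bowtie2, Picard, featureCounts and the mm9 mouse build, with versions not given in the sources used here. How regions were defined is not given there. The deposited region lengths (other) were used as widths. Total counts of 241394 to 1704896 per library gave medians of 3 to 10 counts per Tbx5-only region in libraries labelled without Tbx5, so the level of a single closed region is imprecise.

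Counts were analysed in R 4.3.3. Group tests used edgeR 4.0.16 (filterByExpr with a minimum count of 10 and total of 15, TMM, quasi-likelihood test, two-sided, Benjamini-Hochberg adjustment over all regions of a comparison, threshold 0.05) on the 12 libraries of GM, GT, MT and GMT only, because the other 12 chose the regions. Each SE was obtained as the size of the fold change (log2) over the square root of F. The script was tested on simulated data. Alternatives were RLE, total counts, loess offsets (span 0.3), DESeq2 1.42.0, no filter, a mean count of at least 20, all 24 libraries, the replicate number as a block, leaving out each library, and other forms of the rule.

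The regions, lists and rules were chosen with earlier results of these data known. Named regions were the 6 with the highest T to control ratio, 3 on each side of the 2.5-fold limit, up to 4 called regions with the highest log2 fold change for each comparison with GM, up to 2 on each side for the others (groups not overlapping, and a mean log2 CPM no lower than the median among tested Tbx5-only regions), 4 with the lowest and 4 with the highest GMT to T ratio, the 3 largest groups of neighbours and the widest. Regions named without GT replicate 1 were added after values were seen. Positions on chromosome 18 are not printed. Sequences, genes and motifs were not used, because the annotation at hand is of another build.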

Additional observations from a re-analysis of the deposited data

How the results depend on the processing

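No log2 fold change of the 16 named regions and comparisons tested under the alternatives changed sign. These had been picked as called regions with large fold changes, so this says little about other regions. The count of Tbx5-only regions called lower than GM in GMT, GT or MT was 0 under each alternative. Low counts in GM left little room for calls toward lower. With a mean count of at least 20, which tests fewer regions, 544 were higher in GMT, 276 in GT and 541 in MT than in GM, 117 were lower and 1 higher in GT than MT, and 1 was lower in GMT than MT. With the replicate block 658 were higher in GMT than GM, 251 higher in GT than GM and 3 higher in GT than MT. A pairing of libraries by replicate number was not seen: over 18 same-numbered pairs the correlation of deviations ran from -0.45 to 0.50, and 2 of 12 libraries correlated best with their own number. These correlations cannot exclude shared batches, since the labels do not say what separates the replicates. GMT exceeded GT in 21 with loess offsets, 25 with no filter and 67 with all 24 libraries fitted, where 1 was lower. GMT exceeded MT in 2 by DESeq2 and 4 with all 24 libraries. GMT was below MT in 2 with RLE, 2 with total counts, 2 with loess offsets, 5 by DESeq2, 1 with no filter and 8 with all 24 libraries. GT exceeded MT in 12 with no filter and 19 with all 24 libraries. The cause was not tested.

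Leaving out each library in turn gave 234 to 1011 higher in GMT, 6 to 914 in GT and 450 to 1053 in MT than in GM. It gave 4 to 70 higher and 0 to 2 lower in GMT than GT, 0 to 9 higher and 0 to 12 lower in GMT than MT, and 0 to 69 higher and 65 to 215 lower in GT than MT. The median log2 ratio of GMT to GM ran from 1.22 to 1.54. A ratio of at least 4 left 706 regions, with a median of 1.62, and offsets of 2 and 10 in place of 5 gave 1611 and 1291 regions, 1232 and 1121 of them shared, with 1.55 and 1.22. CPM scaled by TMM gave 1674 regions, 1564 of them shared, with 1.32. Of the named regions' values 312 of 320 kept their call, which their choice by large called fold changes made likely from the start. Counts per region, few in GM, limit what single regions show.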
